A study of Xenopus laevis with 16 samples.

Results

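Keratin, cadherin and junction genes were measured in animal caps, pieces of the ectoderm that roofs the blastula of the frog Xenopus laevis. The genes were chosen by name alone, as every probe set with a single gene symbol in the platform annotation that starts with the stem of a keratin (krt), a claudin (cldn), a cadherin (cdh, pcdh), another tight junction protein (tjp, ocln), a desmosomal protein or plakin (dsp, dsc, dsg, ppl, evpl, jup, pkp), a connexin (gja, gjb) or EpCAM. This gave 69 genes on 86 probe sets, of 7531 genes with a single symbol and 15491 probe sets in all, and the brightest probe set stood for each gene. No measured symbol began with dsg. By family they were 23 keratins, 8 cadherins, 5 protocadherins, 9 claudins, 3 other tight junction genes, 12 desmosome and plakin genes, 4 connexins and the 2 epcam genes. The other 3, krtcap3.L, dscc1.L and cldnd1.L, share only the start of their name and are no keratin, desmocollin or claudin. Xenopus laevis carries a long (L) and a short (S) copy of many genes, called homeologs, and these were kept as separate genes.

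There were 4 groups of 4 samples, each hybridised to its own Affymetrix array as total RNA from a pool of 45 to 171 caps. Embryos were injected with 100 pg of foxD5 mRNA per cell at the 2-cell stage or left uninjected, and their caps, cut from injected embryos at stage 8 to 9, were cultured either plain or in 200 ng/ml Noggin, an extracellular antagonist of BMP signals. The foxD5 gene encodes a forkhead protein that is made in early neural ectoderm. Each injected sample has an uninjected partner from the same brood, which makes 4 pairs without Noggin and 4 pairs in Noggin. Pairs are numbered 1 to 4 within each culture as the labels number them, and the labels do not tie a number in 1 culture to the same number in the other. Injected caps were grown to labelled stages between 11.5 and 13 without Noggin and between 11.5 and 12.5 in Noggin. Uninjected caps in Noggin were grown to stages between 11.5 and 12.5, while no stage is given for the uninjected caps without Noggin. In Noggin the partners of pairs 2, 3 and 4 differ in labelled stage. Pair 2 was at 11.5 to 12.5 in injected against 11.5 to 12 in uninjected caps. Pair 3 was at 12 to 12.5 against 11.5 to 12, and pair 4 at 12.5 against 12 to 12.5. The labels call the caps of pair 4 small. No sample received another mRNA, so foxD5 cannot be told apart from injection as such, and the labels do not say that the broods of different pairs had different parents, so each p-value reflects only how these samples vary, which may be technical.

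Keratins are the intermediate filament proteins of epithelial cells and work as pairs of a type I and a type II chain. Cadherins hold neighbouring cells together at adherens junctions, desmosomes tie the keratin filaments of neighbours to each other, claudins and occludin seal tight junctions, and connexins form the channels of gap junctions. In the frog embryo the surface ectoderm turns on epidermal keratin genes during gastrulation under BMP signalling, whereas ectoderm on its way to neural tissue does not.

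Signals below are those the submitters deposited, on a linear scale on which each array has a trimmed mean of 150.02. Changes are differences of log2(signal + 16) after quantile normalisation, so the change of a dim gene is understated, and each carries its standard error (SE). A gene passed the test at a limma p-value below 0.05 after Benjamini-Hochberg adjustment over all 15491 probe sets. Of the 69 genes, 44 had a mean signal of 16 or more over the 16 arrays. The 25 dimmer ones were 12 of the 23 keratins, 3 cadherins, 4 protocadherins, 2 claudins, tjp3.S, ppl.L, gja1.L and gja4.L. Array medians of log2 signal lay between 5.79 and 6.35 before normalisation, and 13 of 16 arrays had their own partner as the most similar array. The exceptions were control 1, foxD5 1 and control 3. Probe sets for foxd4l1, the current name of the foxD5 genes, did not separate injected from uninjected caps (foxd4l1.1.S signal 38.1, 95.7, 44.8 and 134 in injected and 35, 70.6, 57 and 20.9 in uninjected caps without Noggin). Whether the injected mRNA holds the sequence they target is not given in the sources used here, so they do not check the labels.

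Of 5886 genes with a mean signal of 16 or more, the 3 that differed most between uninjected samples with the same label were keratins. The krt12.4.L gene encodes an epidermal type I keratin that is widely used as a marker of frog epidermis, and its signal in uninjected caps without Noggin was 1830, 81.9, 24.9 and 338 in pairs 1 to 4. In the uninjected caps in Noggin it was 122, 1720, 26.9 and 30.3. Each culture thus held both very high and very low samples, a 73.7-fold range without Noggin and a 64-fold range in Noggin.

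After foxD5 injection the krt12.4.L signal was 30.9, 89, 51.5 and 66.6 without Noggin, a 2.88-fold range. In Noggin it was 132, 500, 23.7 and 20.5, and the highest injected sample was again that of pair 2. Injected and uninjected samples overlapped in both cultures. The log2 differences, injected minus uninjected, were -5.19, 0.23, 0.67 and -1.94 in pairs 1 to 4 without Noggin and 0.10, -1.67, -0.14 and -0.49 in Noggin.

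The S homeolog krt12.4.S showed a similar pattern, at 1430, 57.4, 61.2 and 286 in uninjected caps without Noggin. In the uninjected caps in Noggin it read 70.9, 1770, 19.1 and 30.8. Its neighbour in the RefSeq gene order of the S genome, krt12.5.S, read 2360, 259, 308 and 1210 without Noggin and 353, 2680, 101 and 80.7 in Noggin. Both were high in control 1, control 4 and the uninjected Noggin sample of pair 2. The third of these neighbours, krt12.6.S, was near the floor of the arrays, at 17.7 or less in every sample.

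The pattern extended to krt7.L, on another chromosome in RefSeq, and to krt70.L, which has 3 genes between it and the plakoglobin gene jup.L. The type II keratin krt7.L read 3180, 512, 615 and 2070 in uninjected caps without Noggin and 724, 3420, 269 and 416 in uninjected caps in Noggin. For the type I keratin krt70.L the signals were 1550, 101, 56.3 and 539 without Noggin and 271, 1770, 42.9 and 13.3 in Noggin. In all 5 of these keratins the 3 highest of the 8 uninjected samples were control 1, control 4 and the uninjected Noggin sample of pair 2. The simple epithelial keratin krt8.1.S was also highest in that Noggin sample (915) and in control 1 (731), and its other 6 uninjected samples lay at 142 to 285.

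**Figure D1:**
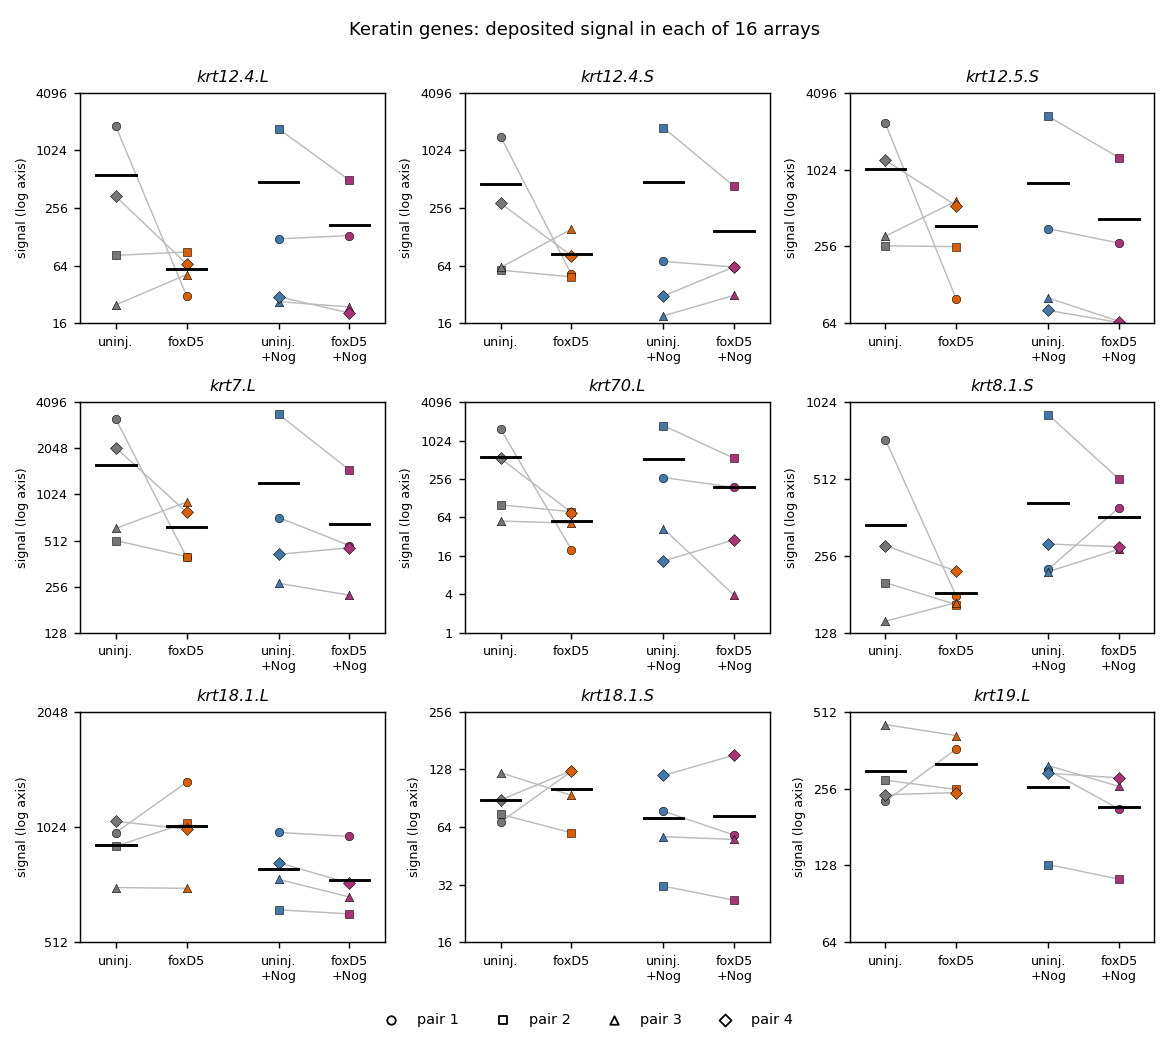
Deposited signal of 9 keratin genes on a log axis in each of 16 arrays, by group, with grey lines joining the samples of a pair, marker shapes giving the pair number and black bars giving the group means. The 5 genes krt12.4.L, krt12.4.S, krt12.5.S, krt7.L and krt70.L show high uninjected samples in pairs 1 and 4 without Noggin and pair 2 in Noggin, while krt18.1.L, krt18.1.S and krt19.L do not.

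Ranked by the standard deviation (SD) of log2 signal within groups, over the 8 uninjected samples, krt12.4.L was the 1st of 5886 genes with a mean signal of 16 or more (SD 2.41), krt70.L ranked 2 (2.35) and krt12.4.S ranked 3 (2.33). The next of the keratins were krt12.5.S at rank 6 (1.86), krt7.L at rank 26 (1.39) and krt8.1.S at rank 90 (0.95). With a pseudocount of 1 in place of 16 the first 3 still held ranks 1 to 3, while krt12.5.S came to rank 22 and krt7.L to rank 117. The median over all 5886 genes was 0.327, over the 44 brighter junction and keratin genes 0.412, and over the 11 brighter keratins 0.95. In the 8 injected samples the spread of krt12.4.L was 1.32, of krt12.4.S 1.12, of krt70.L 1.56 and of krt8.1.S 0.32, against a median of 0.319 over all genes. Whether the spread differs between injected and uninjected caps was not tested.

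**Figure D2:**
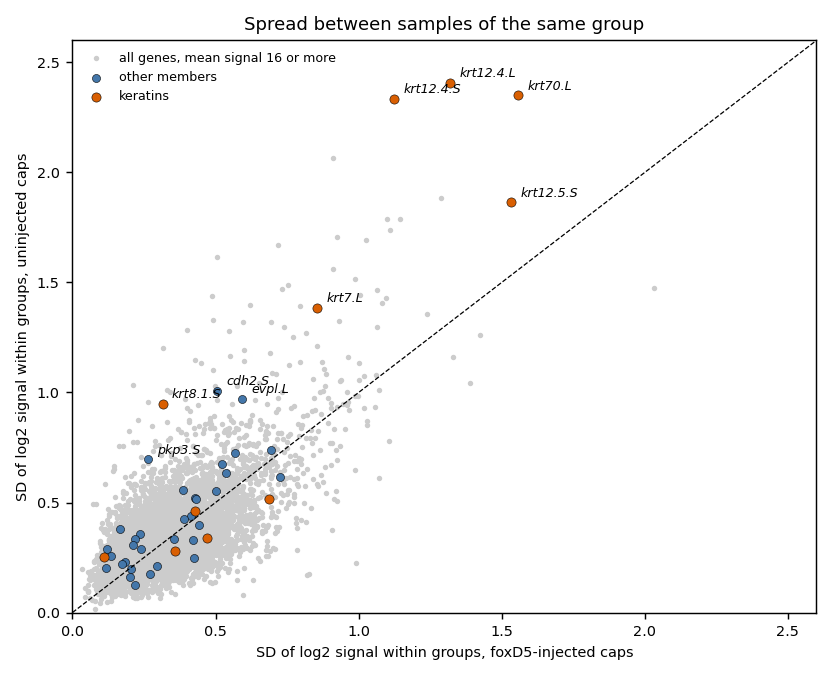
SD of log2 signal within groups in uninjected caps (vertical) against foxD5-injected caps (horizontal) for 5886 genes with a mean signal of 16 or more, with the keratins in orange and the other members in blue. Points above the dashed line vary more between uninjected samples, and krt12.4.L (2.41 against 1.32), krt12.4.S (2.33 against 1.12) and krt70.L (2.35 against 1.56) stand at the top.

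Leaving out the uninjected Noggin sample of pair 2 gave krt12.4.L an SD of 1.95 (rank 1), krt70.L 1.93 (rank 2) and krt12.4.S 1.70 (rank 3). Leaving out control 1, the pool of 45 caps, gave 2.11 (rank 3), 2.24 (rank 1) and 2.12 (rank 2). The other pseudocount and these removals, like the set of 3 samples, were chosen after seeing the data. Control 4 held 142 caps and the uninjected Noggin sample of pair 2 held 136, and the part of pool size or stage in the spread was not tested.

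On the normalised log2 scale the same 3 uninjected samples were also the highest in genes other than keratins. They were the top 3 for 11 of the 44 brighter members (25%), against 451 of 5886 genes (7.66%). Of these 11, 5 are the keratins on which the 3 samples were picked. Those 5 match by that choice and raise the 25%. The rest of the 11 were cdh1.S and cdh2.S, encoding E-cadherin and N-cadherin, the protocadherin pcdh1.L, the plakin evpl.L, the plakophilin pkp3.S and tjp3.L. Of these tjp3.L was nearly flat, at 100 to 149 over the uninjected samples (SD 0.21, rank 4825 of 5886). On the deposited scale the third highest cdh1.S signal was that of control 2 (55.7), just above control 4 (53.5). Envoplakin, the product of evpl, joins keratin filaments to the cell envelope of stratified epithelia, and evpl.L read 194, 74.4, 41.5 and 97 without Noggin and 87.7, 225, 34.3 and 33.8 in Noggin. These shares describe samples picked for the keratins and carry no test.

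Transcription factor genes of non-neural ectoderm moved with the keratins. Their 12 measured genes summed to 6480, 2670, 2740 and 5610 in uninjected caps without Noggin, pairs 1 to 4, and to 4120, 8260, 1970 and 2020 in Noggin. The 3 highest sums again belonged to control 1, control 4 and the uninjected Noggin sample of pair 2, and 7 of the 10 brighter genes of that list had the same 3 samples on top on the normalised scale. Injected caps summed to 1460 to 1900 without Noggin and to 1200 to 3370 in Noggin. Of the 12 genes 5 fell over the 8 pairs, namely tfap2a.L, grhl3.L, klf17.L, gata2.L and msx1.L (list median -0.97, all genes 0.00, with 1.37% of all probe sets called in either direction), and 7 did not pass. The only measured goblet cell gene, itln1.L, read 71.4 in control 1 and 61 in the uninjected Noggin sample of pair 2, and at most 25.5 elsewhere. Its part in the keratin values was not tested. In pooled caps, fewer cells of a type and less RNA per cell cannot be told apart.

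Not all keratins took part. The type I partner of keratin 8, krt18.1.L, read 990, 912, 711 and 1060 in uninjected and 1340, 1050, 708 and 1010 in injected caps without Noggin, so that the groups overlapped almost fully. The S homeolog krt18.1.S lies next to krt8.1.S in the RefSeq gene order, yet in the uninjected Noggin sample of pair 2, where krt8.1.S was highest, krt18.1.S was lowest of all uninjected samples (31.4). The simple epithelial keratin krt19.L was also lowest there (129), with the other uninjected samples at 228 to 456. The S copy krt70.S had a narrower range than its L homeolog, from 4110 to 8870 over all uninjected samples on its brightest probe set. It was still highest in the uninjected Noggin sample of pair 2 (8870) and in control 1 (6880). A dimmer probe set was highest in that Noggin sample (1500), control 1 (1340) and control 4 (1060), and another in the same samples (2410, 1630 and 1720). The last was highest in that Noggin sample (6180) and then in the uninjected Noggin sample of pair 4 (5670).

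Among the 69 genes none passed for foxD5 without Noggin, where 0.239% of all probe sets were called, and none in Noggin, where 0.316% were called. At an unadjusted limma p below 0.05 there were 10 and 5 of the 69 members in these comparisons, beside 1581 and 1141 of all 15491 probe sets. Over 8 pairs 1 of 69 passed (1.45%), beside 1.37% of all probe sets, so the share of members called was that of the arrays as a whole. For the difference of the foxD5 effect between cultures no member passed and 0% of probe sets were called, with 4 members and 765 probe sets at an unadjusted limma p below 0.05. The medians over all 69 genes were -0.03 without Noggin, 0.01 in Noggin and -0.04 over 8 pairs.

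FoxD5 left no keratin past the test on its brightest probe set, in either culture or over all 8 pairs. Over 8 pairs the largest decrease was that of krt70.L, at -1.39 ± 0.47 (SE), lower in 7 of 8 pairs but short of the threshold (limma adjusted p = 0.243). For krt12.4.L the change was -1.05 ± 0.50 (limma adjusted p = 0.446), lower in 5 of 8 pairs, and for krt7.L -0.76 ± 0.30 (limma adjusted p = 0.339), lower in 6 of 8. The values for krt12.5.S and krt12.4.S were -0.87 ± 0.43 and -0.74 ± 0.48. For krt18.1.L and krt18.1.S the values were 0.02 ± 0.10 and 0.06 ± 0.13, with 95% intervals of -0.20 to 0.24 and -0.22 to 0.35. The interval of krt12.4.L was much wider, at -2.14 to 0.04.

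Across the 11 brighter keratins the median change was -0.56 without Noggin, -0.24 in Noggin and -0.25 over 8 pairs, beside 0.01, -0.01 and 0.00 over all genes of that brightness. Pair by pair, the median of these 11 was -1.99, -0.11, -0.01 and -0.40 without Noggin and -0.12, -0.79, -0.14 and -0.01 in Noggin. The 3 lowest medians were those of the pairs with the 3 high uninjected samples. Each difference subtracts the uninjected value and those samples were picked on the same keratins, so this order adds nothing to the levels above. Without pair 1 the median for caps lacking Noggin came to -0.16, and without pair 2 that for caps in Noggin to -0.12. Over the remaining 7 pairs it was -0.20 without the former pair and -0.14 without the latter. In pair 1 without Noggin the uninjected pool held 45 caps and the injected pool 171, and the deviations of these partners from their group means correlated at -0.115 over all probe sets, against 0.203 to 0.670 in the other 7 pairs. The part of pool size in the result was not tested.

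A second probe set of krt70.S fell over 8 pairs, by 0.59 ± 0.13 on the log2 scale (limma adjusted p = 0.0431), lower in 8 of 8 pairs. Its change stayed between -0.67 and -0.54 in 15 alternatives, but it passed in only 6 of them (limma adjusted p up to 0.662). The other 3 probe sets of that gene, the brightest among them, gave -0.17, -0.24 and -0.27 and did not pass. The last 2 carry a suffix that marks probes open to cross-hybridisation. The 2 probe sets of krt7.L gave -0.76 and -0.58, and those of krt8.1.S -0.25 and -0.16.

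**Figure D3:**
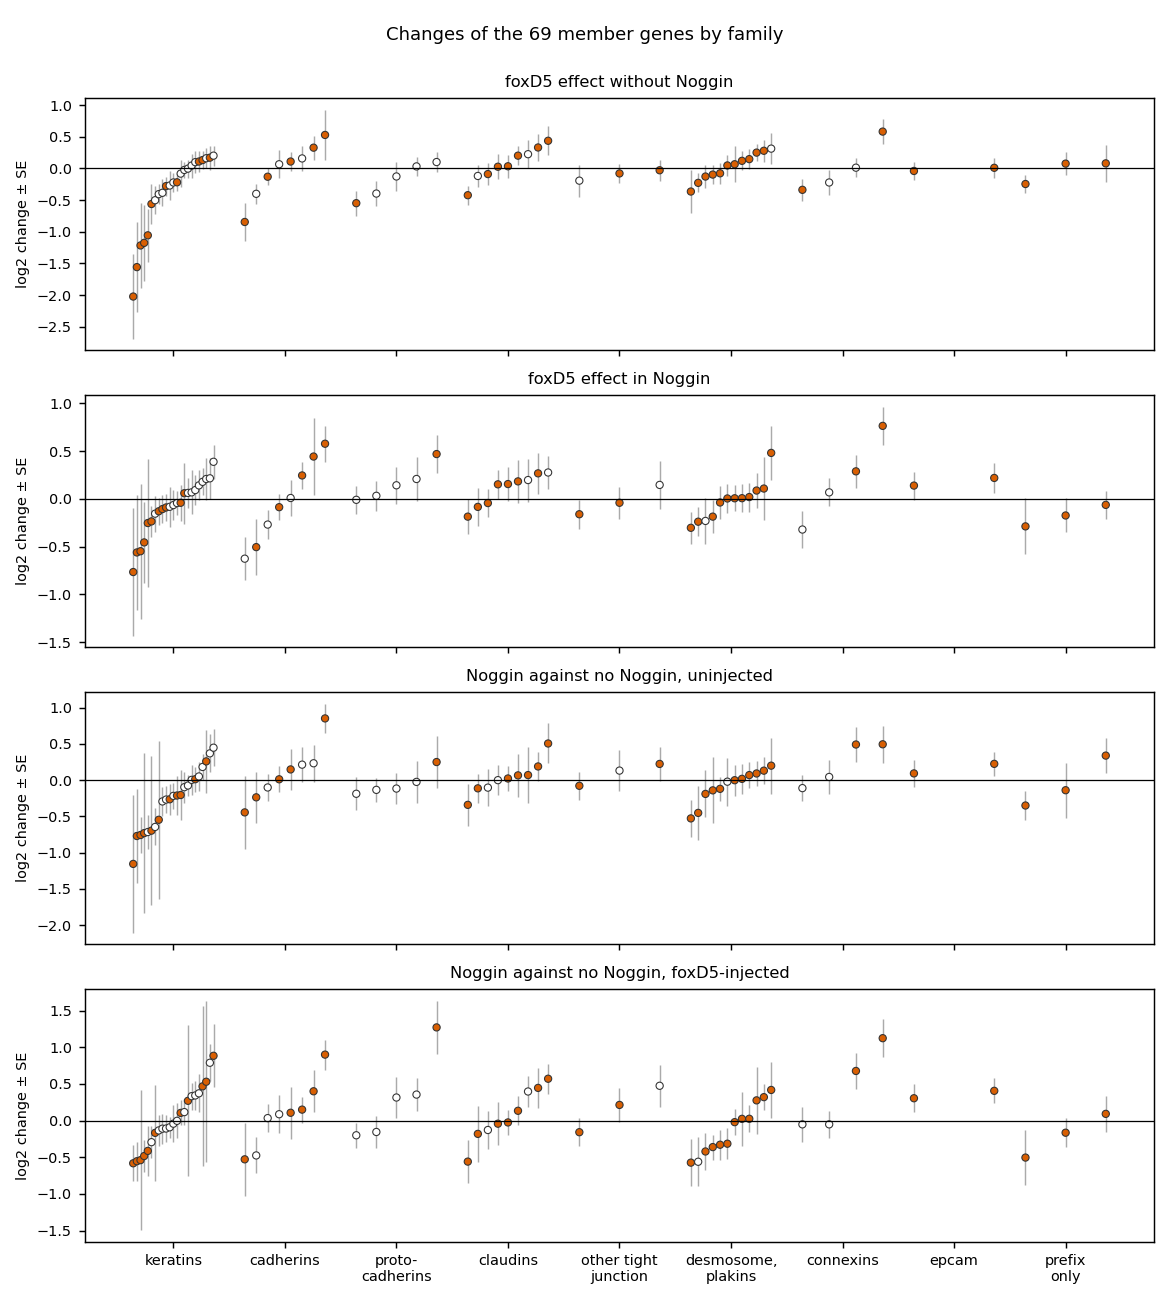
Log2 changes with SE bars of all 69 genes by family in 4 comparisons, filled where the mean signal was 16 or more and open where it was lower, and ordered by size within a family. Keratin changes without Noggin reach down to -2.02 with wide bars, while most claudin, desmosome and epcam changes lie within 0.5 of 0.

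The gene that rose over 8 pairs was gjb2.L, which encodes a gap junction channel protein of the connexin family. Its signal in uninjected caps without Noggin was 49.1, 46.6, 42.5 and 18.4, and in injected caps 61.5, 86, 61.7 and 39.4. In Noggin it was 46.9, 53.3, 54.9 and 56.3 in uninjected and 71.3, 60.8, 152 and 155 in injected caps. Every injected sample was above its partner, and in Noggin the groups did not overlap. The widest differences, 1.19 and 1.26 on the log2 scale, were those of pairs 3 and 4 in Noggin, whose injected caps are labelled as later in stage. Injected caps of pair 2 in Noggin are also labelled to a later stage than their partner, and that pair had the smallest difference of the 8, at 0.13. The part of stage in these differences was not tested. The change was 0.67 ± 0.14 over 8 pairs (1.6-fold, limma adjusted p = 0.041), made of 0.58 ± 0.20 without Noggin and 0.77 ± 0.20 in Noggin, neither of which passed alone (limma adjusted p = 0.323 and 0.243). The call was lost in 9 of 15 alternatives, namely a pseudocount of 1 or 64, the fit without the pairs as a block, and the removal of pair 2, 3 or 4 without Noggin or of pair 1, 3 or 4 in Noggin (limma adjusted p = 0.0719 to 0.139 for these removals).

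The other connexins showed no such rise. For gja7.S the change over 8 pairs was -0.02 ± 0.12, from -0.34 ± 0.17 without Noggin, lower in 4 of 4 pairs, and 0.29 ± 0.17 in Noggin, higher in 3 of 4. The difference between cultures was 0.63 ± 0.24 (limma adjusted p = 0.926). On their brightest probe sets, gja1.L, the gene of the most widespread vertebrate connexin, and gja4.L were at most 18.2 and 11.6 in any sample, too dim to order. The other probe set of gja1.L had a mean signal of 3.26 and was highest in control 2 (27.2).

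The classical cadherins gave values in both directions, none past the test. E-cadherin appears in the frog ectoderm during gastrulation, and cdh1.S read 103, 55.7, 42.5 and 53.5 in uninjected and 8.24, 38.1, 48.3 and 20.2 in injected caps without Noggin. In Noggin the values were 48.8, 80.5, 21.2 and 36.4 against 26.3, 35.9, 9.64 and 39.2. Injected samples were lower in 7 of 8 pairs on the normalised scale, by 0.68 ± 0.21 on average, with overlapping groups (limma adjusted p = 0.185).

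N-cadherin marks the neural plate. Its L gene, cdh2.L, was dim, at 7.26, 7.89, 7.4 and 26.7 in uninjected and 26.1, 10.5, 13.6 and 21.3 in injected caps without Noggin, and at 6.47, 25.9, 7.27 and 14.3 against 21.8, 41.5, 12.6 and 33.1 in Noggin. It was higher in 7 of 8 pairs, at 0.45 ± 0.13 (limma adjusted p = 0.165), but its 2 other probe sets gave -0.19 ± 0.12 and -0.14 ± 0.19. The homeolog cdh2.S, with a mean signal of 48.0, gave 0.49 ± 0.28 and was higher in 5 of 8 pairs, with 1 uninjected sample, control 2, as low as 6.33.

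C-cadherin, encoded by cdh3, is the maternal cadherin that holds frog blastomeres together. The L gene read 1440 to 2320 in uninjected and 1670 to 2620 in injected caps over both cultures, a change of 0.18 ± 0.10 with a 95% interval of -0.05 to 0.40. For cdh3.S the foxD5 effect was -0.11 ± 0.10. Of the dimmer cadherins, cdh20.L, called F-cadherin in the frog, gave -0.33, cdh6.L was lower without overlap in injected caps in Noggin (0.47 to 0.88 against 6.04 to 13.6, all near the floor of the arrays), and cdh11.S, a neural crest cadherin, lay at 0.99 to 37.8.

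**Figure D4:**
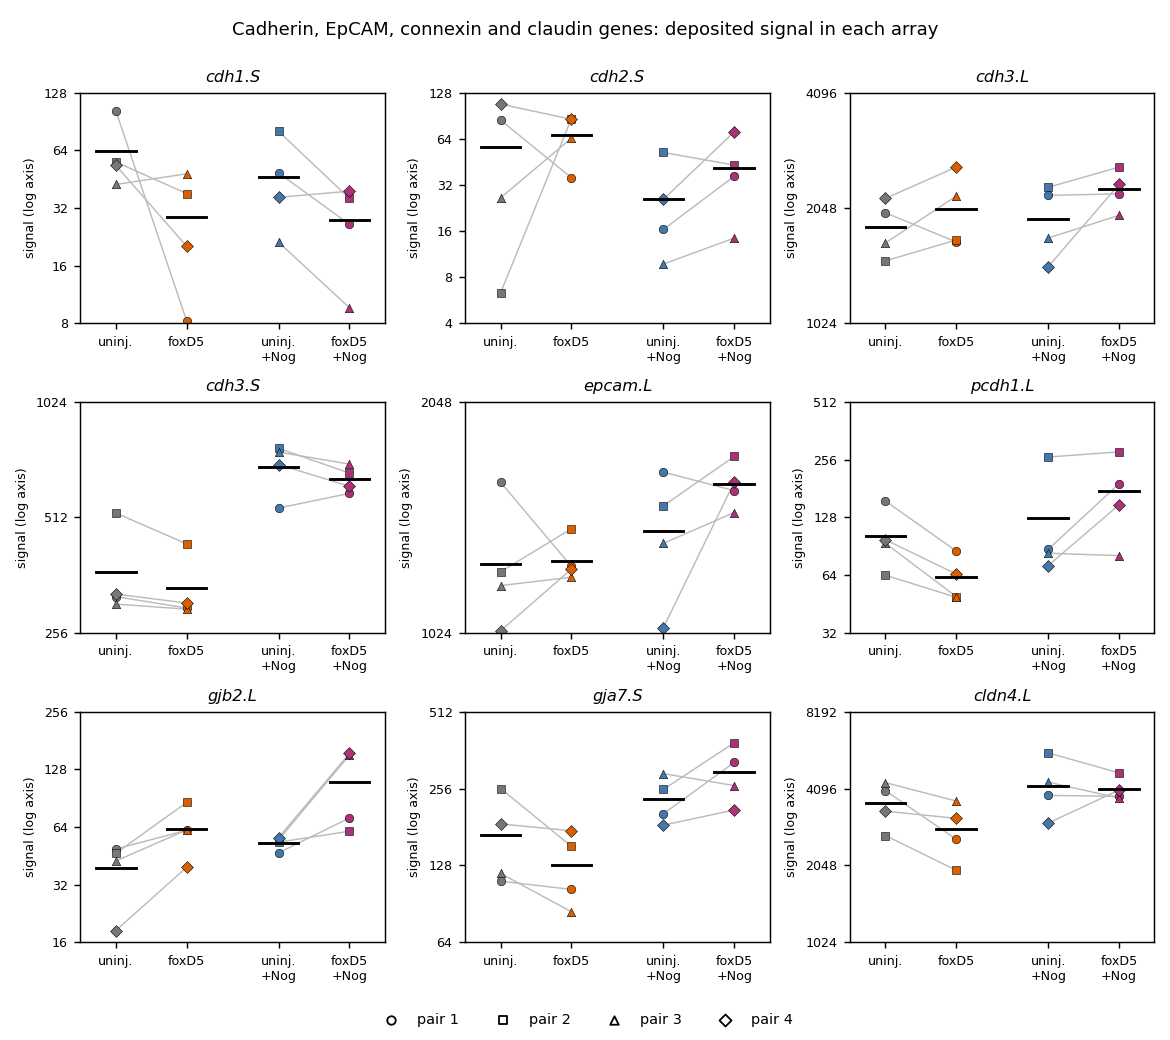
Deposited signal of 9 cadherin, epcam, connexin and claudin genes on a log axis in each of 16 arrays, with grey lines joining pairs, marker shapes giving the pair number and black bars giving group means. The gjb2.L lines all go up with foxD5, the cdh1.S lines mostly go down, and cdh3.S is higher in Noggin (542 to 776) than without it (295 to 526) in uninjected and injected caps alike.

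Among the protocadherins only pcdh1.L, known in the frog as axial protocadherin, had a mean signal of 16 or more. Without Noggin it read 156, 63.9, 93.8 and 97.9 in uninjected and 85.5, 49, 49.4 and 64.8 in injected caps, lower in 4 of 4 pairs (-0.55 ± 0.20). In Noggin it read 87.3, 265, 83.3 and 71.8 against 192, 282, 80.9 and 149, higher in 3 of 4 pairs (0.47 ± 0.20). The difference between the cultures was 1.02 ± 0.28, the smallest p of any member for that question, and it did not survive adjustment (limma adjusted p = 0.926).

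None of the claudins passed. The cldn4.L gene read 4020, 2680, 4320 and 3340 in uninjected and 2590, 1960, 3660 and 3130 in injected caps without Noggin, lower in 4 of 4 pairs by 0.42 ± 0.15 (limma adjusted p = 0.338). In Noggin the difference was -0.04 ± 0.15. The neighbouring genes cldn6.1 and cldn6.2 gave 0.30 ± 0.15 for cldn6.1.S, -0.03 ± 0.14 for cldn6.1.L, 0.18 ± 0.11 for cldn6.2.S, whose probe set may bind transcripts of several genes, and -0.08 ± 0.13 for cldn6.2.L. For cldn7.L the change was 0.03 ± 0.12 and for cldn5.L, present in endothelia in mammals, 0.31 ± 0.16. Claudin medians were 0.03 without Noggin and 0.16 in Noggin.

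Occludin and the scaffold protein of tjp3 gave small values. The ocln.S change was -0.03 ± 0.12, with a 95% interval of -0.30 to 0.23, and its dimmer probe set gave -0.27 ± 0.15. For tjp3.L it was -0.12 ± 0.11 and for the dim tjp3.S -0.02 ± 0.18. Signals of ocln.S ran from 161 to 388 over all samples, and each group overlapped the others.

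No desmosomal gene and neither epcam gene passed over 8 pairs. Desmoplakin, which anchors keratin filaments to the desmosome, gave -0.05 ± 0.11 for dsp.L and -0.13 ± 0.12 for dsp.S. Plakoglobin, shared by desmosomes and adherens junctions, gave 0.06 ± 0.10 for jup.L and -0.13 ± 0.12 for jup.S. The 5 plakophilin genes lay between -0.13 and 0.13, pkp3.S with the widest SE (0.24) and a 95% interval of -0.64 to 0.39. Envoplakin, evpl.L, gave 0.27 ± 0.20, with an interval of -0.16 to 0.71, and the desmocollin dsc3.S 0.12 ± 0.12. EpCAM, a surface glycoprotein of epithelial cells, gave 0.11 ± 0.11 for epcam.L and 0.05 ± 0.10 for epcam.S, with 95% intervals of -0.13 to 0.36 and -0.18 to 0.28.

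Homeologs did not always share the sign of the foxD5 effect. Of 16 pairs of homeologs, 11 had the same sign over 8 pairs of samples, and of the 13 in which both copies had a mean signal of 16 or more, 8 did. The widest gap was that of krt70, at -1.39 ± 0.47 for the L and -0.17 ± 0.10 for the S copy. Differences between homeologs were not tested.

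Genes that work with the members were counted in the same fit. None of the 7 measured cytoplasmic adherens junction genes passed over 8 pairs (median 0.01), none of 10 further tight junction and polarity genes (median -0.005) and none of 4 genes that anchor the basal side of the cell (median 0.18). Of 12 genes tied to epithelial-mesenchymal transition 1 rose, vim.L, which encodes vimentin, the intermediate filament protein of mesenchymal and early neural cells (0.76 ± 0.12, limma adjusted p = 0.00797), and the median of the 12 was 0.08. Within that list snai1.S, a repressor of E-cadherin transcription, gave 0.49 ± 0.14 and did not pass (limma adjusted p = 0.141). Its part in the cdh1.S values was not tested.

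Of the 12 non-neural ectoderm genes 10 had a mean signal of 16 or more, while 6 of 10 mesoderm genes and 7 of 10 endoderm genes were dimmer. Over the 8 pairs 1 of 10 mesoderm genes rose (tbxt.S), as did 1 of 10 endoderm genes (vegt.L) and 2 of 11 neural genes (elavl3.L and tubb2b.S). Of 4 ionocyte genes 1 fell (foxi1.L), and 1.37% of all probe sets were called in either direction. The median of the neural list was 0.15. None of 3 ciliated cell genes passed, and neither did itln1.L. Summed signals of the mesoderm list were 71.7 to 324 in uninjected and 126 to 317 in injected caps without Noggin, with myod1.L, myf5.L and gsc.S under 16 on average. Endoderm sums were 196 to 473 against 512 to 783, with sox17a.L, sox17a.S and gata4.L under 16. In that comparison vegt.L, with a mean signal of 515, gave 1.81 ± 0.27 (limma adjusted p = 0.0178), while the other genes at 16 or more, gata5.S and gata6.L, gave -0.75 ± 0.19 and -0.36 ± 0.17 and did not pass, and the list median was -0.11. Neural sums, pairs 1 to 4, were 1610, 2890, 3100 and 1880 in uninjected and 2560, 2620, 2350 and 2450 in injected caps without Noggin. In Noggin they were 2910, 1520, 3660 and 4510 in uninjected and 2690, 2500, 3380 and 3370 in injected caps. The lowest uninjected neural sums were those of control 1, control 4 and the uninjected Noggin sample of pair 2. The part of any of these lists in the values of the members was not tested.

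Noggin changed no member past the test. In uninjected caps 0.00646% of all probe sets were called and in injected caps 0.129%. At an unadjusted limma p below 0.05 there were 4 and 10 of the 69 members, beside 1275 and 1825 of all 15491 probe sets. The labels name no brood shared by caps with and without Noggin, so Noggin cannot be told apart from differences between broods. Labelled stages of injected caps also differ between the cultures, at 11.5 to 13 without Noggin and 11.5 to 12.5 in Noggin. The part of stage in the Noggin values was not tested. Both contrasts compare the same 2 cultures of 4 pairs each.

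The member with the smallest p for Noggin in uninjected caps was cdh3.S. Without Noggin it read 318, 526, 304 and 323 in uninjected and 297, 437, 295 and 306 in injected caps. In Noggin it read 542, 776, 759 and 704 in uninjected and 592, 669, 706 and 618 in injected caps. The cultures did not overlap in either case, and the changes were 0.85 ± 0.20 in uninjected caps (limma adjusted p = 0.195) and 0.90 ± 0.20 in injected caps (limma adjusted p = 0.0743). Its homeolog cdh3.L gave 0.01 ± 0.18 and 0.15 ± 0.18. Lack of overlap between the cultures in the same direction in uninjected and injected caps held for 1.3% of all probe sets.

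In injected caps gja7.S read 103, 152, 84.2 and 175 without Noggin and 324, 387, 263 and 211 in Noggin. That is a change of 1.12 ± 0.26 (limma adjusted p = 0.0743), against 0.50 ± 0.26 in uninjected caps, where the cultures overlapped. For pcdh1.L the change was 1.27 ± 0.36 in injected caps (limma adjusted p = 0.15) and 0.25 ± 0.36 in uninjected caps. For gjb2.L the values were 0.68 ± 0.25 and 0.49 ± 0.25.

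Without overlap, 7 of 69 members differed between the cultures in injected caps (10.1%, beside 6.68% of all probe sets), namely cdh3.S, cldn4.L, epcam.L, gja7.S, krt8.1.S and pkp4.S, higher in Noggin, and the dim pcdh8l.S, lower. In uninjected caps it was 3 of 69 (4.35%, the same as the 4.35% of all probe sets), cdh3.S higher and the dim krt57.L and krt78.7.L lower. For foxD5 the counts were 0 of 69 without Noggin (2.78% of all probe sets) and 3 of 69 in Noggin (4.35%, beside 2.21%). The latter were gjb2.L, higher in injected caps, and the dim cdh6.L and krt12.6.S, lower. For krt12.6.S the signals were 0.895 to 1.2 in injected and 1.21 to 2.55 in uninjected caps, near the floor of the arrays.

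No keratin passed the test between the cultures. Across the 11 brighter keratins the median Noggin change was -0.55 in uninjected caps, beside -0.03 over all genes of that brightness. Negative values were found in 9 of the 11. In injected caps the median was -0.17, beside -0.03 over all genes of that brightness, with 6 of the 11 negative. In uninjected caps the Noggin change was -0.55 ± 1.09 for krt12.4.L and -1.16 ± 0.95 for krt12.5.S, and the 95% interval of the former, -2.84 to 1.74, spans both a strong decrease and a strong increase. Among the less variable keratins krt19.S gave -0.76 ± 0.25 in uninjected caps (limma adjusted p = 0.395) and -0.58 ± 0.25 in injected caps (limma adjusted p = 0.366), with overlapping groups in each.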

How the data were processed

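All 16 arrays, 4 in each of 4 groups, were read from 1 table of probe set intensities that the authors deposited on a linear scale. Its 2%-trimmed mean was 150.02 on every array, so arrays had been scaled to a common value, and the scaling software is not given in the sources used here. The 120 control probe sets of 15611 were left out. Values were taken as log2(intensity + 16) and quantile normalised, because array medians ranged over more than 0.2. Tests were two-sided, with limma 3.58.1 in R 4.3.3 and Benjamini-Hochberg adjustment over 15491 probe sets. FoxD5 effects were fitted with the 8 pairs as a fixed block. Partners are named as brood mates by the labels, and deviations from group means correlated at 0.203 to 0.670 in 7 pairs and -0.115 in pair 1 without Noggin. Noggin effects were fitted on group means with the pair as a random block (correlation 0.364). The methods were tested on simulated data, with changes of 1 on the log2 scale put into 200 of 15491 probe sets in each of 3 runs. Of these 600 changes, 543 (90.5%) were recovered for foxD5 over 8 pairs, with 24 false calls. For Noggin in uninjected caps 146 (24.3%) were recovered, with 10 false calls, so most changes of that size were missed in the simulation. Its spread between pairs was taken from pair means that already held residual noise and any difference between the cultures. That spread could thus be wider than in the data, and 24.3% may be too low. The changed probe sets were drawn at random, so these shares do not hold for the most variable keratins, such as krt12.4.L with an SE of 0.50 for foxD5. The foxD5 comparisons within a single culture were not simulated. Ranges and SDs of signal are over deposited values or normalised log2 values as stated, and their precision depends on how many arrays there are.

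Of the probe sets, 9304 have 1 gene symbol in the platform annotation, 195 several and 5992 none. All 69 member symbols matched RefSeq (Xenopus laevis), used only for names and gene order. Probe set suffixes mark the brightest probe sets of krt8.1.S and krt12.2.L, and 2 further ones of krt70.S, as open to cross-hybridisation. Members, lists and tests were chosen with earlier results of these data known. Genes were named where they passed a test, had 1 of the 3 smallest p-values of their family over 8 pairs, or were classical markers (cdh1, cdh2, cdh3, epcam, ocln, dsp, jup, krt8, krt18, krt12.4). All others, such as krt12.5.S, krt19, gja7.S and pkp3.S, were named after their values were seen. Sources and titles of the samples name a tissue other than the caps described with each sample, and the descriptions were followed. The 2 injected samples without a number in the title were taken as number 1, 1 in each culture. Promoter motifs and sequences were not analysed here. Alternatives changed the pseudocount, normalisation, low-signal filter, block, probe set choice and samples.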

Additional observations from a re-analysis of the deposited data

Results flagged for a closer look

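Within groups of 4, a sample far from the other 3 on the normalised scale was found in 10 of 136 combinations of a named gene and a group, where chance gives about 1 in 20. In cdh3.S pair 2 stood apart without Noggin on both sides, with a signal of 526 in control 2 (others 304 to 323) and 437 in foxD5 2 (others 295 to 306). In pcdh1.L the uninjected Noggin sample of pair 2 read 265 (others 71.8 to 87.3). That sample was also high in the epidermal keratins. For ocln.S the uninjected Noggin sample of pair 3 read 388 (others 242 to 255), and for dsp.S the same sample read 321 (others 425 to 462). A signal of 454 for dsp.S in foxD5 2 was set against 394 to 408 in the others. For krt18.1.L control 3 read 711 (others 912 to 1060). The remaining 3 were in dim genes, namely gja1.L at 5.6 in foxD5 2 with Noggin (others 0.815 to 0.902), gja4.L at 5.87 in foxD5 3 with Noggin (others 1.74 to 2.99) and pcdh8l.S at 5.02 in control 4 (others 1.03 to 6.25). The last lies within the range of the others as deposited and stands apart only after normalisation.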

How the results depend on the processing

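Over 8 pairs the count of members past the test moved from 1 to 0 with a pseudocount of 1 or 64 and with no replicate block, to 2 when all probe sets of the members were counted, and between 0 and 1 when single pairs were left out. For Noggin in injected caps the count moved from 0 to 1 with median centring and to 2 with a pseudocount of 64. With only the brighter 7745 probe sets tested it moved to 2. It moved to 1 with the replicate number as a fixed replicate block across cultures, a number that the labels do not tie between cultures. When single pairs were left out it lay between 0 and 1. Among all probe sets the count over 8 pairs was 213, and 57 with a pseudocount of 1, 221 with 64 and 67 without the replicate block. The cause was not tested. Signs turned in 15 leave-out fits, all of changes near 0, whose ranges were -0.007 to 0.097 for epcam.S, -0.016 to 0.089 for gja4.L, -0.114 to 0.014 for ocln.S, -0.160 to 0.123 for tjp3.S, -0.013 to 0.118 for pcdh8l.S, -0.119 to 0.044 for pcdh1.L, -0.101 to 0.024 for dsp.L, -0.035 to 0.055 for krt18.1.L and -0.023 to 0.138 for krt18.1.S. The change of gjb2.L kept its sign in 15 of 15 alternatives (0.42 to 0.85) and passed in 6, that of cdh3.S for Noggin in injected caps passed in 5 of 16 and that of gja7.S in 2 of 16.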
